A study of Hydra vulgaris with 2 samples.

Results

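Among the RNAs carried by *Hydra vulgaris* extracellular vesicles (EVs), 4 transcripts encode membrane proteins and membrane-traffic proteins that the study also listed in the EV protein fraction: annexin-B12 (LOC100203975), annexin A4-like (LOC100212701), ADP-ribosylation factor 1 (ARF1, LOC100200770) and the tetraspanin CD151 antigen-like (LOC100205782). They were chosen by their measured levels, as genes of that kind whose pair of TPM values in the EV libraries picked out a single RNA target. TPM is transcript abundance per length, scaled to the same total in each library. They are 4 of 25314 listed RNA targets, of which 21982 are mRNA targets. Their levels and ratios are therefore given as a description, with no test.

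EVs were collected from the medium of *Hydra* polyps of strain Zurich, kept at 250 polyps per dish in 10 mL of medium and starved for 4 days. They were isolated by differential ultracentrifugation and treated with proteinase K at 1 mg/mL and then RNase A at 10 µg/mL before total RNA was extracted. The study has 2 EV libraries of 1 condition, called library ExoRNA11250Hy and library ExoRNA5000Hy after their labels. The study's methods describe the libraries as biological replicates, with EVs gathered on separate occasions. What the labels' numbers count was not stated. No RNA of whole polyps was used, so that levels are those in the EV preparations and enrichment over the animal was not measured. More vesicles of a kind cannot be told apart from more copies per vesicle.

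The libraries differed in depth. Library ExoRNA11250Hy held 3943873.0 estimated counts over 3542 targets above 0, against 5943550.5 over 12878 in library ExoRNA5000Hy. In library ExoRNA11250Hy 98.7% of the counts fell on the 5 most abundant targets, leaving 51976.6 counts for all others. In library ExoRNA5000Hy the 5 most abundant took 97.0% and left 176028.0 counts. mRNA targets held 2.26% of the counts in library ExoRNA11250Hy and 6.15% in library ExoRNA5000Hy. In each library this share is larger than what lay outside the 5 most abundant targets, so it includes mRNA among those 5. All 4 transcripts were measured in the small remainder outside those 5 targets, where sampling error was large for low counts.

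Annexins are proteins that bind acidic phospholipids in the presence of calcium, and in animals they take part in membrane trafficking, aggregation and repair. Annexin-B12, also called annexin XII, is a *Hydra* annexin, and annexin A4-like is named after a vertebrate annexin that binds membranes in the same calcium-dependent way. ARF1 is a small GTPase which, as known in yeast and mammals, recruits coat proteins and adaptors to Golgi membranes when bound to GTP. CD151 is a tetraspanin, a protein that crosses the membrane several times and gathers partners into membrane microdomains, and in mammals it associates with laminin-binding integrins. Annexins, small GTPases and tetraspanins are common constituents of exosome preparations from many animals.

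The 4 transcripts were all present in both libraries, and the annexins were the most abundant among them. By mean TPM they followed the order annexin-B12, annexin A4-like, ARF1, CD151-like, and each library taken alone gave the same order. Each had estimated counts that were whole to within 0.001, so in neither library did fractional counts show reads divided between one of these transcripts and a similar target. This matters for ARF1, since ARF genes resemble each other.

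Annexin-B12, read on a target of 1022 bases (XM_002155250.3), was at 5.88 TPM in library ExoRNA11250Hy from 24 counts, with an exact 95% Poisson interval of 3.77 to 8.75 TPM. In library ExoRNA5000Hy it was at 15.0 TPM from 97 counts, with an interval of 12.1 to 18.2 TPM. The intervals of the libraries did not overlap, and in both libraries the transcript was far above the level worth 3 counts, 0.735 TPM in library ExoRNA11250Hy and 0.462 TPM in library ExoRNA5000Hy. Its mean was 10.4 ± 6.41 TPM (SD, n = 2 libraries), which placed it at rank 143 of the mRNA targets. Intervals here and elsewhere cover counting error only, since sequenced reads are not independent molecules.

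Annexin A4-like had more reads than annexin-B12 on a longer target of 1858 bases (XM_012698355.1), and a similar level per length. It was at 4.38 TPM in library ExoRNA11250Hy (34 counts, interval 3.03 to 6.12) and at 14.5 TPM in library ExoRNA5000Hy (179 counts, interval 12.5 to 16.8). Its mean was 9.44 ± 7.16 TPM (SD, n = 2), at rank 151 of the mRNA targets. The annexin-B12 to annexin A4-like ratio of TPM was 1.34 in library ExoRNA11250Hy, with an exact 95% interval of 0.763 to 2.33, and 1.03 in library ExoRNA5000Hy, with an interval of 0.796 to 1.33. Both intervals included 1, so the levels of the annexins could not be distinguished at this depth.

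ARF1, on a target of 1127 bases (XM_002162851.3), was at 2.20 TPM in library ExoRNA11250Hy from 10 counts, with an interval of 1.06 to 4.05 TPM. In library ExoRNA5000Hy it was at 9.97 TPM from 72 counts, with an interval of 7.80 to 12.6 TPM. The mean was 6.09 ± 5.49 TPM (SD, n = 2), at rank 194 of the mRNA targets. The annexin A4-like to ARF1 ratio was 1.99 in library ExoRNA11250Hy (interval 0.961 to 4.51) and 1.46 in library ExoRNA5000Hy (interval 1.10 to 1.94), so that ARF1 lay below this annexin beyond counting error in library ExoRNA5000Hy, while the interval in library ExoRNA11250Hy included 1. Annexin-B12 exceeded ARF1 beyond counting error in both libraries, with a ratio of 2.67 in library ExoRNA11250Hy (interval 1.23 to 6.26) and of 1.50 in library ExoRNA5000Hy (interval 1.09 to 2.06).

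CD151-like, on a target of 929 bases (XM_012707346.1), was the lowest of the 4. It was at 1.09 TPM in library ExoRNA11250Hy, from 4 counts, and at 5.83 TPM in library ExoRNA5000Hy, from 34 counts. The interval in library ExoRNA11250Hy, 0.297 to 2.79 TPM, reached below 0.4 TPM, the level used to call a transcript detected, whereas that in library ExoRNA5000Hy was 4.03 to 8.14 TPM. The mean was 3.46 ± 3.35 TPM (SD, n = 2), at rank 294 of the mRNA targets. The targets listed just before and after it had 0 counts in both libraries, so its value would be the same if it were a sum with either of them.

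CD151-like lay below both annexins beyond counting error in each library. The annexin-B12 to CD151-like ratio was 5.40 in library ExoRNA11250Hy (interval 1.85 to 21.4) and 2.57 in library ExoRNA5000Hy (interval 1.72 to 3.91). The annexin A4-like to CD151-like ratio was 4.02 in library ExoRNA11250Hy (interval 1.43 to 15.6) and 2.49 in library ExoRNA5000Hy (interval 1.72 to 3.71). Against its neighbour in the order, ARF1, the difference held in library ExoRNA5000Hy only, where ARF1 was 1.71 times as high (interval 1.12 to 2.65). In library ExoRNA11250Hy that ratio was 2.02 with an interval of 0.582 to 8.82. The differences between neighbours' means, 0.975 TPM between the annexins, 3.36 TPM between annexin A4-like and ARF1 and 2.63 TPM between ARF1 and CD151-like, were all smaller than the SDs between the libraries. Those SDs include the lower values that all 4 transcripts had in library ExoRNA11250Hy. They therefore do not measure the error of a difference within a library, for which the counting intervals of the ratios are given.

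**Figure D1:**
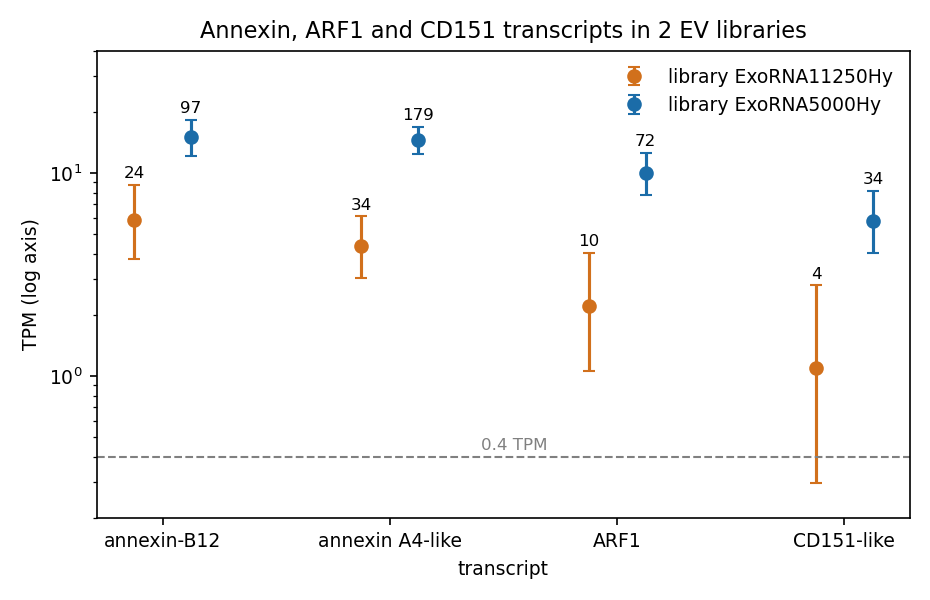
TPM on a log axis for annexin-B12, annexin A4-like, ARF1 and CD151-like in library ExoRNA11250Hy (orange) and library ExoRNA5000Hy (blue), with exact 95% Poisson intervals of the counts printed above each point; the dashed line is 0.4 TPM. In each library the order is the same, and only the interval of CD151-like in library ExoRNA11250Hy, from 4 counts, crosses the line.

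All 4 transcripts were at 0.4 TPM or more in both libraries and had at least 3 counts in each. Of all mRNA targets, 3.74% reached 0.4 TPM in both libraries and 3.13% had 3 counts in both, and of the 5552 mRNA targets at 0.4 TPM in at least 1 library the share at that level in both was 14.8%. Since the transcripts were chosen by these values, nothing is read from the contrast. By its level in library ExoRNA11250Hy, annexin-B12 ranked 72 among the mRNA targets, annexin A4-like 109, ARF1 188 and CD151-like 352. In library ExoRNA5000Hy the ranks were 152, 154, 194 and 308 in the same order.

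On the deposited TPM scale all 4 transcripts were lower in library ExoRNA11250Hy than in library ExoRNA5000Hy, by 2.54-fold for annexin-B12 (interval 1.61 to 4.16), 3.31-fold for annexin A4-like (2.29 to 4.93), 4.53-fold for ARF1 (2.33 to 9.84) and 5.34-fold for CD151-like (1.91 to 20.7), but scaling by the median ratio of well-counted targets reversed the direction for both annexins. A lower value in library ExoRNA11250Hy was general on the TPM scale: 94.7% of the mRNA targets at 0.4 TPM in at least 1 library were lower there, and 94.5% of the 926 mRNA targets that were matched to a gene of the study's supplementary gene list. Both sets include targets that were seen in library ExoRNA5000Hy alone. Of the 171 mRNA targets with at least 10 counts in both libraries, 81.9% were lower in library ExoRNA11250Hy. The direction of the 4 transcripts was therefore that of most mRNA targets.

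On the log2(TPM + 0.1) scale, the difference of library ExoRNA11250Hy minus library ExoRNA5000Hy was -1.33 for annexin-B12, -1.71 for annexin A4-like, -2.13 for ARF1 and -2.32 for CD151-like. The median of the mRNA targets at 0.4 TPM in at least 1 library was -2.67, with quartiles of -3.25 and -2.10. Annexin-B12 lay above 85.4% of them, annexin A4-like above 80.6%, ARF1 above 74.6% and CD151-like above 72.5%. Against the 479 mRNA targets whose counts summed over both libraries lay between 38 and 213, the range of the 4 transcripts, the annexins lay higher, with annexin-B12 above 93.9% and annexin A4-like above 88.5%. ARF1 lay above 76.2% of these similarly counted targets and CD151-like above 71.8%, and their median was -2.79. The comparison with targets of similar counts was added after the data had been seen. Of the 5552 targets only 14.8% were at 0.4 TPM in both libraries, so a transcript at that level in both ranks high among them by construction. The 479 targets were matched on summed counts alone and included some with 0 counts in library ExoRNA11250Hy, so the same limit holds for them. Against the 171 mRNA targets with at least 10 counts in both libraries, annexin-B12 lay above 66.7% and annexin A4-like above 59.6%, whereas ARF1 lay above 40.4% and CD151-like, which did not itself have 10 counts in library ExoRNA11250Hy, above 35.1%. The annexins were above the median of each of these 3 sets, while ARF1 and CD151-like were below the median of the well-counted targets. Since the transcripts were chosen by these values, their positions are a description only.

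The choice of scaling moved every one of these differences. After the 5 most abundant targets and the ribosomal RNA were left out, the differences were -0.99 for annexin-B12, -1.37 for annexin A4-like, -1.82 for ARF1 and -2.06 for CD151-like. Rescaled to mRNA targets alone they were -0.095, -0.48, -0.93 and -1.17 in that order. That scaling also left out the 5 most abundant targets and the most abundant mRNA target remaining after them. The differences with that mRNA target kept in were not computed. When the libraries were scaled by the median ratio over the 182 targets with at least 10 counts in both, which shifts log2 ratios without a pseudocount by 1.97 and those of low counts by less once the pseudocount is added, annexin-B12 and annexin A4-like changed sign, to 0.62 and 0.24, and ARF1 and CD151-like were at -0.21 and -0.43. After that scaling 50.9% of the 171 mRNA targets with 10 counts in both libraries were lower in library ExoRNA11250Hy, and the interval of each of the 4 transcripts, computed without a pseudocount, included 0. For annexin-B12 it was -0.088 to 1.28, and for CD151-like -2.41 to 1.04.

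**Figure D2:**
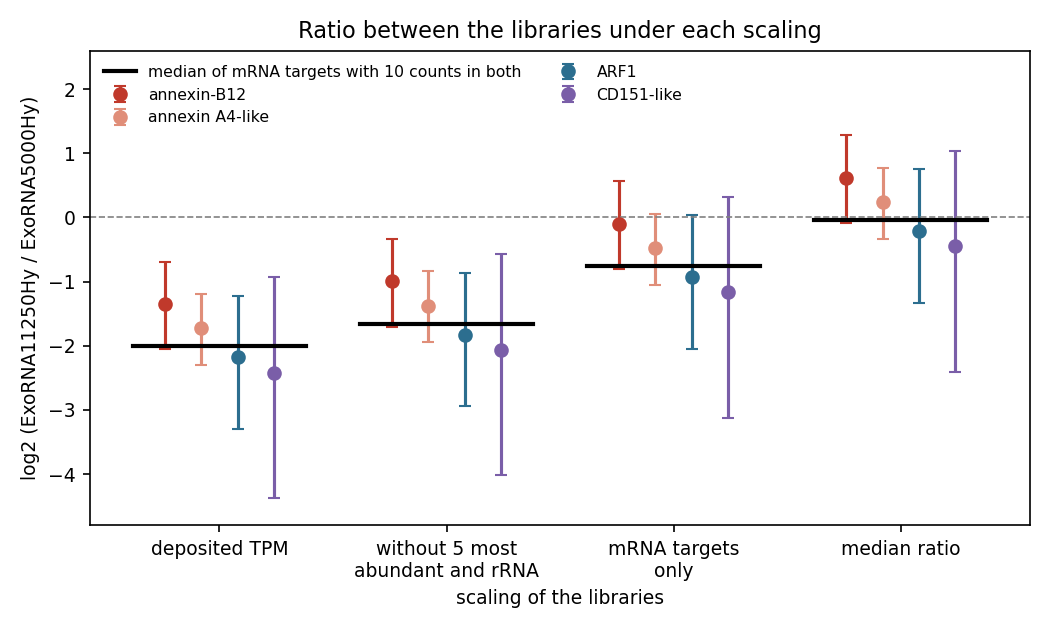
log2 ratio of library ExoRNA11250Hy over library ExoRNA5000Hy, without a pseudocount, for annexin-B12, annexin A4-like, ARF1 and CD151-like under each of 4 scalings, with exact 95% intervals; the black bars are the median of the 171 mRNA targets with at least 10 counts in both libraries. All 4 points lie below 0 on the deposited TPM scale, and both annexins lie above 0 under the median-ratio scaling, where every interval includes 0.

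Although the scaling moved the differences between libraries, it left the ratios between the transcripts within a library as they were. All 4 lay among the better detected mRNA targets, on the side of the plot of both libraries where library ExoRNA5000Hy was higher. Annexin-B12 and annexin A4-like were close to each other there, with ARF1 and CD151-like below them.

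**Figure D3:**
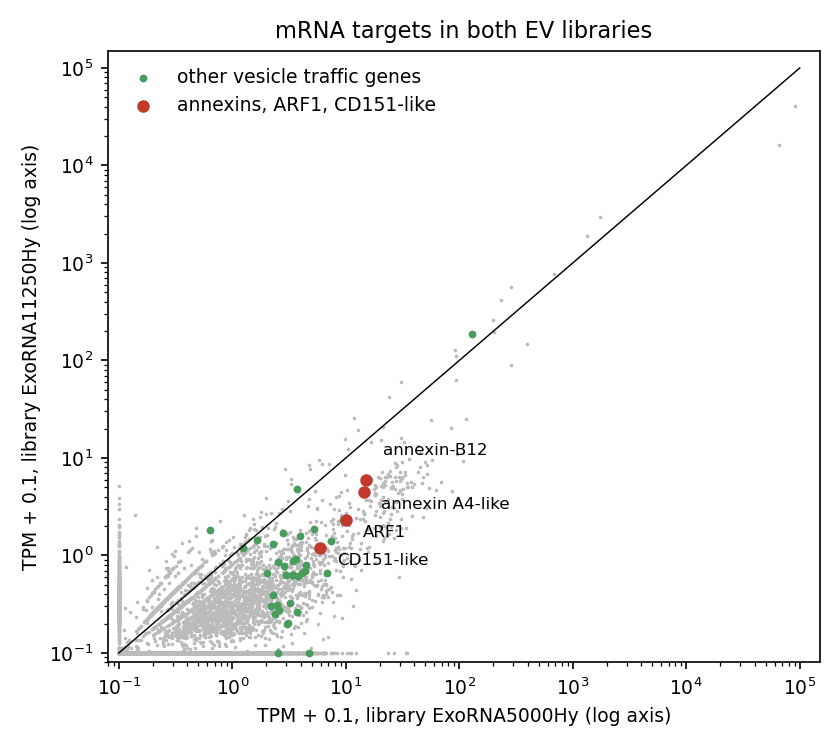
TPM + 0.1 of each mRNA target in library ExoRNA5000Hy (horizontal, log axis) and library ExoRNA11250Hy (vertical, log axis), with annexin-B12, annexin A4-like, ARF1 and CD151-like in red and the other identified vesicle traffic genes in green; the line marks equal values. On this deposited scale the 4 transcripts lie below the line with most mRNA targets, at 5.88, 4.38, 2.20 and 1.09 TPM in library ExoRNA11250Hy; both annexins would lie above it after median-ratio scaling.

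EV cargo also included transcripts of many other vesicle traffic genes, and the annexins and ARF1 stood near the top of this group by level. A list of 40 such genes, the 4 included, was set up by function from gene names in a part of the study's supplementary list that held 1264 genes. It gave 39 identified genes, 37 by a single target and 2, arfaptin-2 and syntenin-1-like, as the sum of 2 targets next to each other in the listing, and of the 39 genes 28 (71.8%) were at 0.4 TPM or more in both libraries and 25 had at least 3 counts in both. Without the 4 transcripts these counts were 24 of 35 (68.6%) and 21. Among all 926 identified mRNA targets, 60.6% reached 0.4 TPM in both libraries and 50.3% had 3 counts in both. The lowest mean among the 39 genes was 1.11 TPM, so vesicle traffic genes of lower level were not covered by these shares. On the deposited scale 36 of the 39 genes were lower in library ExoRNA11250Hy, with a median log2 difference of -2.32, and of -2.41 without the 4 transcripts, against -2.65 for the identified mRNA targets. The list's median stayed below 0 but came to -0.43 after median-ratio scaling.

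Of the 35 other listed genes, only the VPS41 homolog (LOC100213788) exceeded ARF1 or either annexin by mean TPM, and 5 exceeded CD151-like. Among those 5, VAP-A-like had 4 counts and syntenin-1-like 3 counts in library ExoRNA11250Hy, so their places above CD151-like were not settled. VPS41 is a subunit of the complex that tethers vesicles to late endosomes and lysosomes. The short VPS41 target of 642 bases was at 188 TPM in library ExoRNA11250Hy and 130 TPM in library ExoRNA5000Hy, with counts that were not whole, so that part of its reads were shared with other targets.

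The other listed genes of the ARF family and its partners had lower TPM values than ARF1 in each library. ADP-ribosylation factor 4/5 (LOC100205899), whose mammalian relatives act at the Golgi and the early secretory pathway, had 1 count in library ExoRNA11250Hy and 22 in library ExoRNA5000Hy, for 0.227 and 3.14 TPM. SAR1b (LOC100207015), the GTPase that starts assembly of the coat of vesicles leaving the endoplasmic reticulum, had 1 count in library ExoRNA11250Hy and 18 in library ExoRNA5000Hy. Arfaptin-2 (LOC100214093), a protein that binds ARF and ARF-like GTPases, was as a sum of 2 targets at 1.22 TPM in library ExoRNA11250Hy and 2.20 TPM in library ExoRNA5000Hy. Its value in library ExoRNA11250Hy lay within the interval of ARF1 there, 1.06 to 4.05 TPM, so their order in that library was not resolved. Among the 926 identified mRNA targets 60.6% reached 0.4 TPM in both libraries, and of the 4 genes of this group ARF1 and arfaptin-2 did. The other GTPases could not be compared between libraries on 1 count.

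The listed genes that partner tetraspanins had lower TPM values than CD151-like in each library. ADAM10-like (LOC100208233), a membrane protease that tetraspanins of mammals help to traffic, was at 0.701 TPM in library ExoRNA11250Hy from 7 counts and at 4.39 TPM in library ExoRNA5000Hy from 69.6 counts. These values lay within the intervals of CD151-like, 0.297 to 2.79 TPM in library ExoRNA11250Hy and 4.03 to 8.14 TPM in library ExoRNA5000Hy. The order of ADAM10-like and CD151-like was therefore not resolved. Integrin beta-2-like (LOC100213119), an adhesion receptor subunit, had 1 count in library ExoRNA11250Hy and 46 in library ExoRNA5000Hy. Integrin beta-2-like was thus below 3 counts in library ExoRNA11250Hy, whereas CD151-like had 4 counts there and fewer reads in library ExoRNA5000Hy. Counts of 1 and 4 were too low to compare how these genes differed between the libraries.

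Transcripts of proteins used as exosome markers or needed for exosome formation were at 0.4 TPM or more in both libraries for 5 of 6 genes. Among the 926 identified mRNA targets the share was 60.6%, and nothing is read from the contrast on so few genes. Syntenin-1-like (LOC100200823), an adaptor that links syndecans to the exosome-forming machinery in mammals, was as a sum of 2 targets at 0.567 TPM in library ExoRNA11250Hy and 6.78 TPM in library ExoRNA5000Hy, from 3 and 57 counts. Flotillin-1-like (LOC100197430), a scaffold of membrane microdomains, was the lowest, with 1 count in library ExoRNA11250Hy and 16 in library ExoRNA5000Hy. The most abundant of the 3 LAMP1-like genes (LOC100211659), named after a lysosomal membrane glycoprotein, was at 2.22 TPM in library ExoRNA11250Hy from 12 counts and 9.41 TPM in library ExoRNA5000Hy from 81 counts. Its levels were nearly those of ARF1.

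Coat and adaptor transcripts were lower than the annexins and ARF1. At 0.4 TPM in both libraries were 3 of 7 genes, beside 60.6% of the 926 identified mRNA targets. The coatomer subunit delta (LOC100215533), part of the coat that ARF1 recruits, was at 0.593 TPM in library ExoRNA11250Hy and 4.25 TPM in library ExoRNA5000Hy. Clathrin heavy chain (LOC100203678), the scaffold of clathrin coats, had 4 counts in library ExoRNA11250Hy and 138 in library ExoRNA5000Hy, for 0.165 and 3.58 TPM. The clathrin light chain (LOC100204867) had 3 counts in library ExoRNA11250Hy and 5 in library ExoRNA5000Hy. In library ExoRNA11250Hy the heavy chain thus had fewer counts than ARF1, although in library ExoRNA5000Hy it had more.

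Transcripts of GTPases of vesicle traffic and cell polarity were also found. Cdc42 (LOC100204156), which controls cell polarity and actin and whose protein was also on the study's EV list, had 2 counts in library ExoRNA11250Hy and 23 in library ExoRNA5000Hy, for 0.514 and 3.72 TPM. Rab-7a (LOC100202475), a GTPase of late endosomes, was at 1.47 TPM in library ExoRNA11250Hy and 3.82 TPM in library ExoRNA5000Hy. Rab-21 (LOC100210227), a GTPase of early endosomes, had 1 count in library ExoRNA11250Hy and 12 in library ExoRNA5000Hy.

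Among SNARE, tether and sorting genes 6 of 8 reached 0.4 TPM in both libraries, though only 3 had 3 counts in both. For the 926 identified mRNA targets these shares were 60.6% and 50.3%. VAP-A-like (LOC100214461), a tether of the endoplasmic reticulum to other membranes, had 4 counts in library ExoRNA11250Hy and 5 in library ExoRNA5000Hy, for 4.72 and 3.65 TPM. Sorting nexin-4-like (LOC101237113), of a family that sorts cargo at endosomes, was the lowest of the group, with 2 counts in library ExoRNA11250Hy and 1 in library ExoRNA5000Hy. The counts of VAP-A-like and sorting nexin-4-like were too low to place either gene relative to CD151-like.

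**Figure D4:**
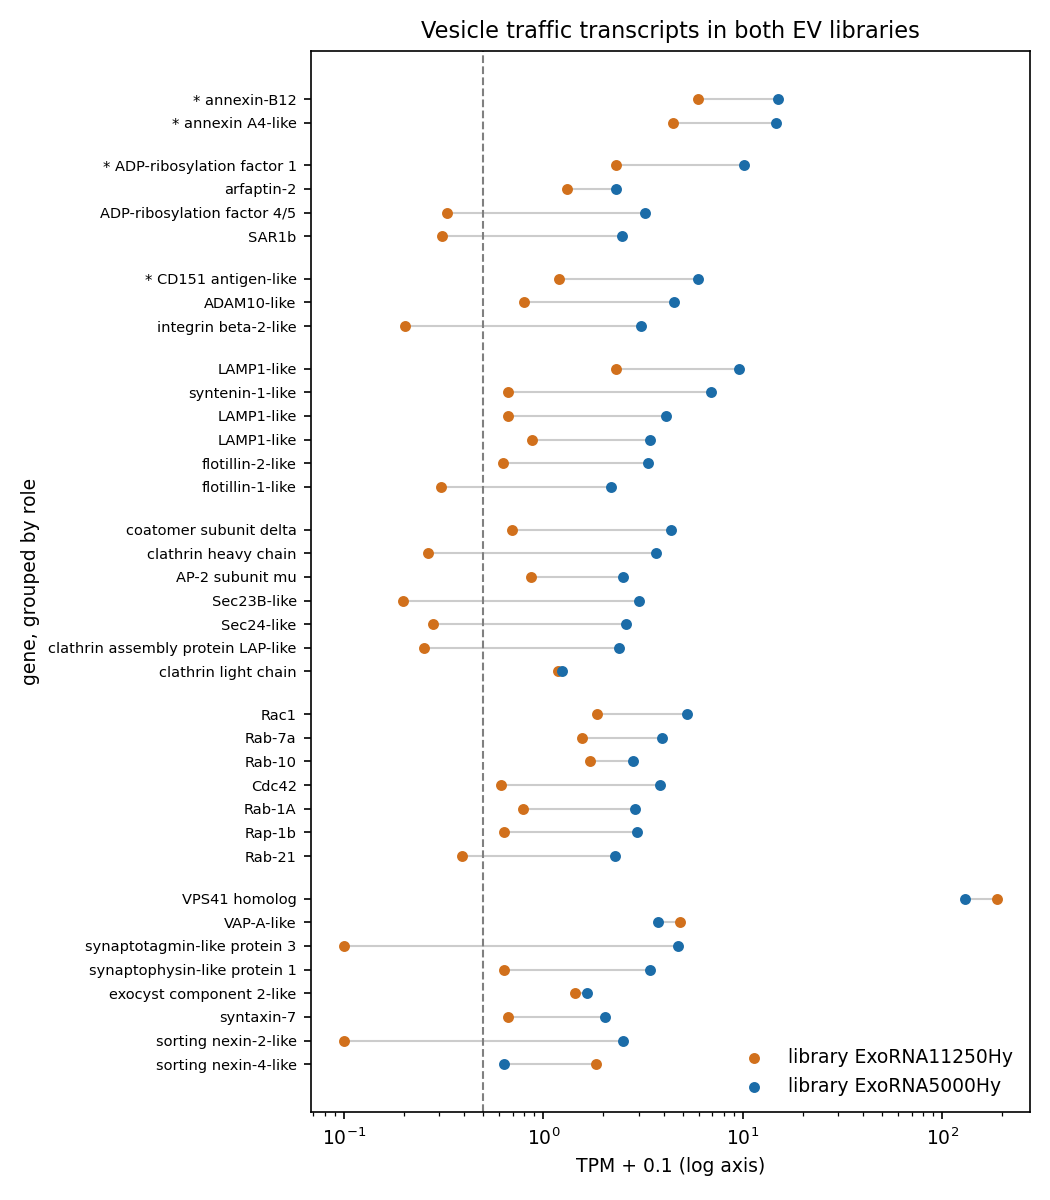
TPM + 0.1 on a log axis for 37 of the identified vesicle traffic genes in library ExoRNA11250Hy (orange) and library ExoRNA5000Hy (blue), grouped by role, with an asterisk before annexin-B12, annexin A4-like, ARF1 and CD151-like; the dashed line marks 0.4 TPM on this axis. On the deposited scale 34 of these 37 genes are lower in library ExoRNA11250Hy, and the VPS41 homolog alone lies to the right of the annexins; the direction for the annexins reverses under median-ratio scaling.

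Of 41 proteins of the study's EV protein list that carry a RefSeq accession, 27 had a transcript identified by a single target. Among these 27 the 4 transcripts held ranks 5, 6, 7 and 16 by mean TPM. Proteins of the list without a RefSeq accession, and those with no single identified target, were left out of the ranking. The ranks are therefore places among these 27 and not among the transcripts of all EV proteins. Syntenin-1-like, which the EV list also names, was read as a sum of 2 targets and not ranked. Its mean of 3.67 TPM was above that of CD151-like. In library ExoRNA11250Hy alone annexin-B12 ranked 3, annexin A4-like 4, ARF1 5 and CD151-like 9. In library ExoRNA5000Hy the ranks were 5, 6, 8 and 17. Above annexin-B12 by mean TPM were the transcripts of tubulin alpha-1D (LOC100197513), a microtubule subunit, of histone H1.0 (LOC101235516), a linker histone, of a ubiquitin-S27a fusion protein (LOC100210748), which gives ubiquitin and a ribosomal protein, and of mucin-5AC-like (LOC100198870), named after a secreted mucin. Histone H1.0 had 0 counts in library ExoRNA11250Hy and 124 in library ExoRNA5000Hy, so that its place rested on library ExoRNA5000Hy alone, whereas all 4 transcripts were counted in both libraries.

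On the deposited scale all 27 transcripts of EV proteins were lower in library ExoRNA11250Hy, with a median log2 difference of -2.83, and the difference of annexin-B12, -1.33, was the smallest in size. The flagellar calcium-binding protein-like transcript (LOC100204853) followed at -1.70 and annexin A4-like at -1.71, ahead of ARF1 at rank 5 and CD151-like at rank 7. The interval of annexin-B12 without a pseudocount, -2.06 to -0.69, included the values of the flagellar transcript and annexin A4-like. Its first place was therefore not settled. The interval of CD151-like was -4.37 to -0.93. Since the 4 transcripts were chosen by these values, their ranks are a description only. Under median-ratio scaling both annexins were above 0.

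By distance between the pairs of log2(TPM + 0.1) values over the 2 libraries, each transcript had identified mRNA targets with nearly the same levels. Nearest to annexin-B12 were cndmc1, a homologue of the meiotic recombinase DMC1, at a distance of 0.0653, the uncharacterized LOC105849045 at 0.113 and tropomyosin-1-like (LOC100213922), an actin-binding protein, at 0.152. Of these only tropomyosin-1-like had whole counts, 25 in library ExoRNA11250Hy and 109 in library ExoRNA5000Hy, for 6.04 and 16.6 TPM. Nearest to annexin A4-like were the ribosomal protein transcripts L10a-like (LOC100204815) at 0.273 and L15-like (LOC100204269) at 0.312, with LOC105849045 between them at 0.311.

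ARF1 had closer neighbours than annexin A4-like. They were the most abundant LAMP1-like transcript (LOC100211659) at a distance of 0.0829, protein disulfide-isomerase A6 (LOC100198247), an enzyme of oxidative protein folding, at 0.140 and the chaperone partner DnaJ A1 (LOC100201285) at 0.152. Nearest to CD151-like were the uncharacterized LOC100207118 at 0.0771, malate dehydrogenase (LOC100208718), an enzyme of central metabolism, at 0.112 and the transcription elongation factor ELL (LOC100210455) at 0.170. The first and the second of these also encode proteins of the EV list. With 2 libraries, likeness of this kind means only that the levels were similar.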

How the data were processed

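RNA-seq was measured in 2 *Hydra* EV libraries of 1 condition. Per the study's methods, Ovation SoLo libraries were sequenced from both ends, trimmed with Trim Galore (first 5 bases of read 1, adapters and low-quality bases removed) and quantified with kallisto on NCBI Hydra_RP_1.0 transcript sequences. Tool versions were not given in the sources used here. The authors deposited estimated counts, not normalized, and TPM, scaled to the sum over all 25314 targets of a library.

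The deposited mRNA targets carry transcript IDs and no gene names. Genes were therefore assigned where the TPM pair matched a gene in the part of the study's supplementary gene list used here, 1264 genes. The relative tolerance was 1e-05, and each of the 4 transcripts matched exactly 1 target. RefSeq gene names served for EV proteins. Exact 95% Poisson intervals and exact conditional binomial intervals of ratios were computed with scipy 1.17.1 and pandas 2.3.3 on Python 3.11.15. log2 values used a pseudocount of 0.1. A transcript was called detected at 0.4 TPM. With 1 condition no test between groups was made, and the spread is that between libraries. Scripts were tested on simulated data. Members, lists and the genes named were chosen with earlier results of these data known; the rule named the highest and lowest gene of each list group by mean TPM, those of the EV protein list, other annexin, ARF or tetraspanin genes and the 3 nearest targets of each transcript. Syntenin-1-like, clathrin heavy chain, Rab-7a and VAP-A-like were named after their values were seen. Some listed genes that the rule would name are not reported here, though the list's totals include them. Sequences were not analysed here.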

Additional observations from a re-analysis of the deposited data

How the results depend on the processing

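Of 70 recomputed values, 47 stayed within the limit set for their kind, 21 moved further and 2 changed sign. The limit was the SD between libraries for means, the counting interval for the log2 differences of the 4 transcripts, and a fixed margin for the rest. With 2 libraries, the value of either library alone and the geometric mean always lie within the SD of the mean. Those settings could not move further, so the count of 47 is no measure of robustness. Rescaling after the 5 most abundant targets and the ribosomal RNA were left out brought the mean TPM of annexin-B12 to 379, annexin A4-like to 339, ARF1 to 215 and CD151-like to 122. Rescaling to mRNA targets, with the most abundant remaining mRNA target left out as well, brought them to 875, 753, 459 and 254. Leaving out either library left the other's value as the mean, 5.88 to 15.0 TPM for annexin-B12, 4.38 to 14.5 for annexin A4-like, 2.20 to 9.97 for ARF1 and 1.09 to 5.83 for CD151-like. The log2 difference of library ExoRNA11250Hy minus library ExoRNA5000Hy came to -0.095 for annexin-B12, -0.48 for annexin A4-like and -0.93 for ARF1 with mRNA scaling. With median-ratio scaling annexin-B12 reversed to 0.62 and annexin A4-like to 0.24, while ARF1 came to -0.21 and CD151-like to -0.43; the cause was not tested, and that scaling rests on targets chosen by their counts in the shallower library. Of the listed vesicle traffic genes, 14 were detected in both libraries at 1 TPM and 6 with at least 10 counts in each, against 28. Their median log2 difference was -1.49 with a pseudocount of 1, -2.42 with none over 37 genes above 0 in both, -2.06 without the 5 most abundant targets, -1.17 with mRNA scaling and -0.43 with median-ratio scaling. ARF1 ranked 123 among the 171 mRNA targets with at least 10 counts in both libraries, a filter CD151-like did not pass. The protein identity between the transcripts' products was not run. No paired analysis was possible because the libraries form 1 group. Depth limits CD151-like most, since 4 counts support it in library ExoRNA11250Hy.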
